A study of Mus musculus with 12 samples.

Results

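The genes examined here set the pace of the G1 phase of the cell cycle: the D-type cyclins Ccnd1, Ccnd2 and Ccnd3, the kinases Cdk4 and Cdk6, the inhibitors Cdkn1a, Cdkn1b and Cdkn2c, and Rb1. They were chosen by gene symbol and are 9 of the 17536 genes with a deposited value. Mki67 was taken beside them as an index of proliferation.

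RNA was measured in chondrocytes of the superficial zone (SFZ) and the deep zone (DZ) of joint cartilage of 5-day-old mice, in which Runx3 was left intact or targeted. R3-Cntl mice carried Runx3 fl/fl alone, and R3-cKO mice carried Col2a1-Cre with Runx3 fl/fl. The strain given with every library is C57BL/6, and the genotypes were compared between littermates. There were 3 libraries in each of the 4 groups of zone and genotype, and no other treatment. Col2a1-Cre is active in cells that express, or descend from cells that expressed, type II collagen, so cells without that history keep Runx3. SFZ cells were released by a first round of enzymes and DZ cells by further digestion of what remained, and the methods describe such cells as grown in a monolayer. How long the cells behind these libraries were in culture is not given. By the study's account, cells of both zones came from individual mice, as many of each genotype as there are libraries in a group. SFZ and DZ libraries may thus share mice, but no label says which belong together. The values are FPKM, fragments scaled to transcript length and library depth, which the authors also scaled between libraries by the trimmed mean of M values. The read depth behind them is unknown.

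As background, D-type cyclins are induced by growth factors and bind Cdk4 or Cdk6. The active kinases phosphorylate the retinoblastoma protein, the product of Rb1, which releases E2F factors that switch on genes of DNA replication. Cdkn2c (p18) is an INK4 protein that binds Cdk4 and Cdk6, while Cdkn1a (p21) and Cdkn1b (p27) act more broadly on cyclin-dependent kinases, and Cdkn1a is a target of p53. In growing cartilage, chondrocytes divide and then leave the cycle as they mature.

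The labels were first set against the data. Runx3, the targeted gene, was measured at 10.73, 5.98 and 6.65 FPKM in SFZ libraries of R3-Cntl and at 11.83, 9.07 and 3.42 FPKM in those of R3-cKO. Among DZ libraries, those of R3-Cntl held 12.67, 12.65 and 7.66 FPKM, and those of R3-cKO held 15.95, 12.66 and 8.14 FPKM. The genotypes overlapped in both zones, and the libraries labelled R3-cKO did not have less Runx3. Between genotypes its log2 fold change (R3-cKO minus R3-Cntl) was -0.04 for SFZ and 0.13 for DZ cells. Prg4, a gene of the superficial zone, did differ in SFZ cells without overlap, as 2.4% of all genes did: the R3-Cntl libraries held 22.24, 8.38 and 7.13 FPKM, while those of R3-cKO held 6.95, 2.47 and 2.13 FPKM. Its log2 fold change was -1.45 (SE 0.52, limma adjusted p = 0.9997), and -0.98 if R3-Cntl SFZ library 1 is left out. In DZ cells the genotypes overlapped in Prg4, and its log2 fold change was 0.63 (SE 0.38). That value was 0.20 without R3-cKO DZ library 1 and 0.96 without R3-cKO DZ library 2. The values are per gene, so RNA that lacks the deleted exons cannot be told apart from intact RNA. Ddx3y, a gene of the Y chromosome that was chosen after its values were seen, was at 15.41, 4.96 and 21.09 FPKM in SFZ and 16.99, 7.50 and 6.92 FPKM in DZ libraries of R3-Cntl. It was at 10.66, 0.02 and 0.01 FPKM in R3-cKO SFZ libraries and at 12.67, 0.00 and 0.00 FPKM in R3-cKO DZ libraries. Libraries 2 and 3 of R3-cKO were thus near 0 in either zone, while every R3-Cntl library held some, and its part in the genotype comparisons was not tested.

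The 7 chondrocyte markers (Col2a1, Acan, Sox9, Col9a1, Col11a1, Matn1 and Comp) were above 1 FPKM in every library. Their summed level was 4670 to 13465 FPKM in SFZ libraries and 14849 to 32697 FPKM in DZ libraries, with Col2a1 the most abundant. The superficial zone list (Prg4, Thbs4 and Erg) summed to 48.4 to 115 FPKM in SFZ libraries and to 4.46 to 8.89 FPKM in DZ libraries. The gap in this sum came from Thbs4, at 36.71 to 108.01 FPKM in SFZ libraries and 0.00 to 2.49 FPKM in DZ libraries. Prg4 (2.13 to 22.24 FPKM in SFZ and 1.22 to 5.72 FPKM in DZ libraries) and Erg (3.03 to 6.05 FPKM and 2.27 to 5.96 FPKM) overlapped between zones when the genotypes are pooled. Within R3-Cntl, Prg4 had zones without overlap, at 1.39, 1.22 and 1.47 FPKM in DZ libraries, beside 32.4% of all genes. Within R3-cKO, Erg had zones without overlap, beside 21% of all genes. It was there at 4.74, 3.80 and 4.52 FPKM in SFZ and at 3.16, 3.25 and 2.46 FPKM in DZ libraries. The hypertrophic list (Col10a1, Ihh, Ibsp, Spp1 and Mmp13) summed to 347 to 835 FPKM in SFZ and to 631 to 1508 FPKM in DZ libraries. The 6 fibroblast markers summed to 2299 to 6184 FPKM in SFZ libraries and to 55.55 to 1248 FPKM in DZ libraries, with Col1a1 the most abundant in 11 of the 12. The 6 macrophage markers summed to 157, 127 and 6.90 FPKM in the SFZ libraries of R3-Cntl, to 122, 13.7 and 56.4 FPKM in R3-cKO SFZ libraries and to 3.71 to 20.4 FPKM in DZ libraries, with Lyz2 the most abundant in each and 4 or 5 of the 6 under 1 FPKM in each DZ library. The 7 skeletal muscle markers summed to 117 FPKM in R3-Cntl SFZ library 2 and to 5.47 to 20.2 FPKM in the other 11 libraries. Endothelial markers summed to 5.50 FPKM or less, erythroid markers to 0.17 FPKM or less and keratinocyte markers to 6.84 FPKM or less in each library. The osteoclast list summed to 66.9 to 178 FPKM in SFZ libraries and to 40.8 to 89.0 FPKM in DZ libraries, nearly all of it Ctsk (39.52 to 173.91 FPKM). Of its other members, Acp5 was at 1.12 to 4.03 FPKM, and Oscar and Calcr were under 1 FPKM in each library.

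Zone therefore moved together with markers of other cell types. Over all 12 libraries, 7 of 7 chondrocyte markers were higher in DZ cells, and 6 of 6 fibroblast markers and 5 of 5 tested macrophage markers were lower (limma, adjusted p under 0.05). Of all 11765 genes tested, 506 were higher and 2219 lower by this rule. The chondrocyte log2 fold changes (DZ minus SFZ) were 1.57 for Col2a1, 2.11 for Acan, 0.80 for Sox9, 1.66 for Col9a1, 1.07 for Col11a1, 2.22 for Matn1 and 1.07 for Comp. Those of fibroblasts were -5.21 for Postn, -3.73 for Col1a1, -3.70 for Cd34, -3.49 for Thy1, -2.34 for Col3a1 and -1.71 for Pdgfra. Macrophage markers were at -2.66 for Lyz2, -2.12 for Cd68, -1.42 for Csf1r, -1.11 for Adgre1 and -0.64 for Cd14, and Thbs4 at -5.36 was the 1 superficial zone gene called. After quantile normalization the counts of chondrocyte, fibroblast and macrophage calls were 6, 5 and 2, and with median-of-ratios scaling 7, 5 and 3. With 1 library left out, Lyz2, Adgre1 and Pdgfra each lost the call in 9 of 12 cases and Comp in 8. The macrophage count was 2 of 5 without R3-Cntl SFZ library 2 or R3-Cntl DZ library 1, and 3 of 5 in 7 further cases. Within R3-Cntl the calls among these lists were Thbs4 (-5.23), Postn (-4.72), Cd34 (-4.07), Thy1 (-3.93) and Prg4 (-2.36, limma adjusted p = 0.0485), and within R3-cKO Cd34 (-3.34). With 1 of the 6 libraries left out, Prg4 and Postn lost the call in 5 cases, Thbs4 and Thy1 in 4, and Cd34 in 3 in R3-Cntl and 4 in R3-cKO. Prg4 and Postn also lost it under both other scalings. In these bulk libraries, fewer cells of a type and less RNA per cell cannot be told apart, and the part of these cell types in the zone differences given here was not tested. The zone comparisons also carried a shift of all genes. The median log2 fold change (DZ minus SFZ) of all tested genes was -0.17 in R3-Cntl, -0.09 in R3-cKO and -0.14 over all libraries. Zone differences of the 9 genes over all libraries are therefore also given relative to that median, and other zone values are not.

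All 9 genes passed the filter on low values, at least 1 FPKM in at least 3 libraries, in each of the 6 comparisons. In order of mean level over the 12 libraries, Cdk4 stood at 222 FPKM (SD 28.9), Cdkn1a at 167 FPKM (SD 46.2), Ccnd2 at 132 FPKM (SD 24.0), Ccnd3 at 86.0 FPKM (SD 24.7) and Ccnd1 at 79.9 FPKM (SD 46.7). Lower down came Cdkn1b at 28.0 FPKM (SD 4.29), Cdkn2c at 21.6 FPKM (SD 8.75), Rb1 at 4.54 FPKM (SD 0.593) and Cdk6 at 2.97 FPKM (SD 1.25). Of neighbours in this order, Cdkn1a and Ccnd2, Ccnd3 and Ccnd1, and Cdkn1b and Cdkn2c differed by less than the larger SD of the pair. The order also depended on the zone. In SFZ cells the 2 genotypes averaged 124 and 99.1 FPKM of Ccnd1, above 70.4 and 71.1 FPKM of Ccnd3, and in DZ cells 37.8 and 58.8 FPKM of Ccnd1, below 96.3 and 106 FPKM of Ccnd3 (R3-Cntl first). Cdkn1a exceeded Cdk4 in R3-Cntl DZ libraries 1 and 3 and in R3-cKO DZ library 3. Cdk4 ranked 256 and Cdk6 ranked 9642 by mean among the 11765 genes that passed the filter over all libraries. The genes differed in how far they varied: the highest library was 11.6-fold above the lowest for Ccnd1, 5.11-fold for Cdk6 and 4.11-fold for Cdkn2c, but 1.54-fold for Cdk4, 1.56-fold for Rb1 and 1.77-fold for Cdkn1b. The median over the 11684 genes above 0 in every library was 1.88-fold, and Mki67 varied 18.9-fold.

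**Figure D1:**
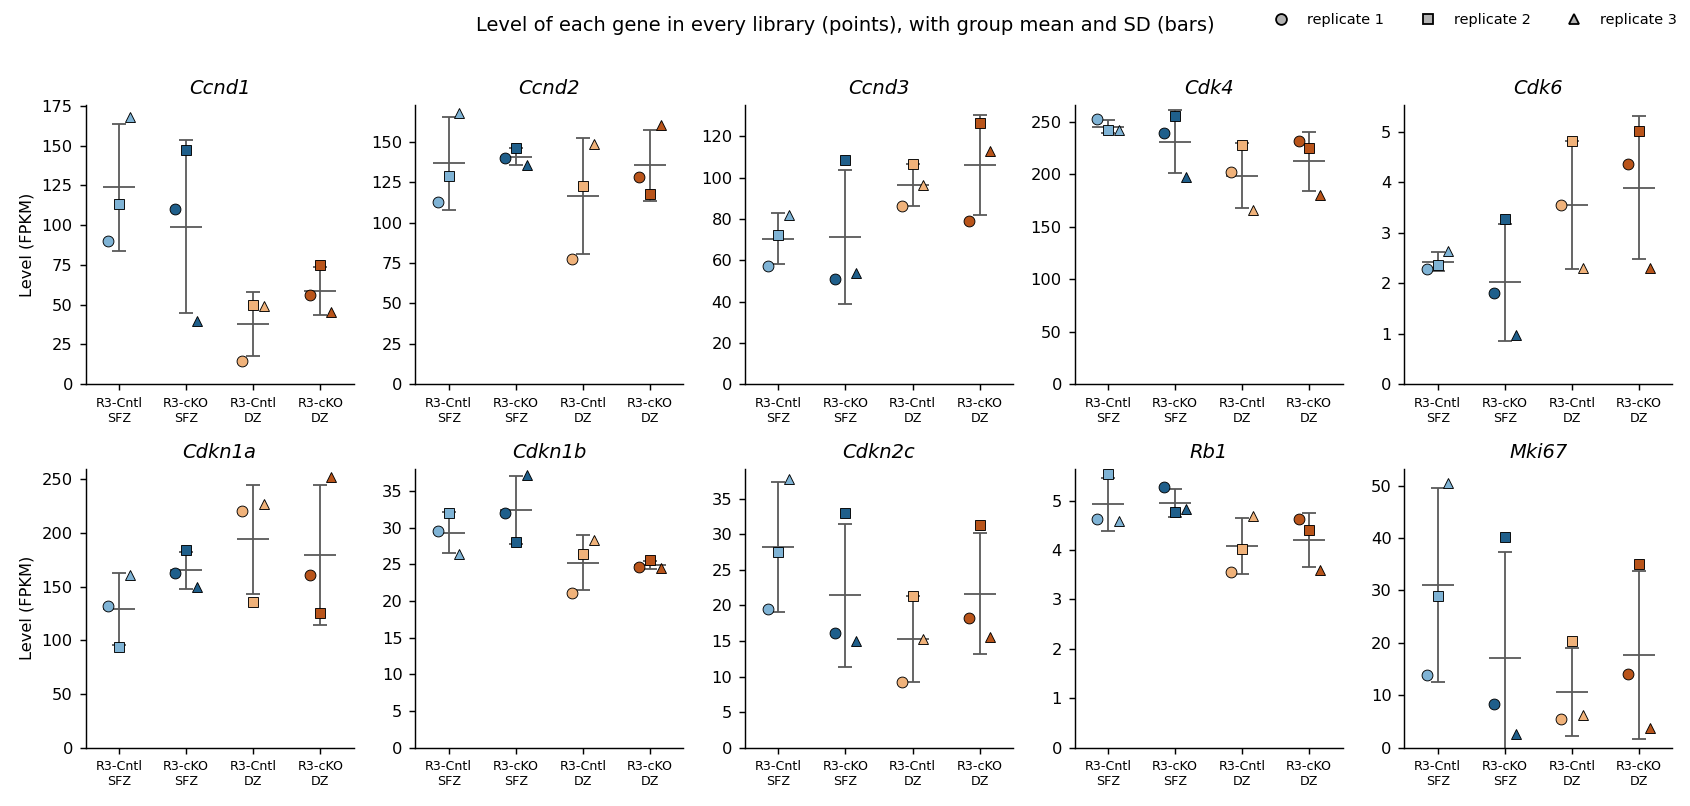
Level in FPKM of each of the 9 genes and of Mki67 in the 12 libraries, grouped by zone and genotype, with points for libraries and lines for the mean and SD of 3. Cdk4 keeps a narrow range, from 166 to 256 FPKM, while Mki67 runs from 2.67 to 50.5 FPKM and its SD in R3-cKO SFZ is longer than its mean.

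Ccnd1 (gene 12443, chr7:152115836-152125774 in mm9, minus strand), the D cyclin most tied to mitogen signalling, was at 90.1, 113 and 168 FPKM in SFZ libraries of R3-Cntl and at 110.0, 148 and 39.9 FPKM in those of R3-cKO. In DZ libraries it was at 14.5, 49.6 and 49.5 FPKM in R3-Cntl and at 56.3, 74.9 and 45.2 FPKM in R3-cKO. Every R3-Cntl DZ library lay below every R3-Cntl SFZ library, whereas in R3-cKO the zones overlapped through the low SFZ library 3. Over all libraries the log2 fold change (DZ minus SFZ) was -1.20 (SE 0.41, n = 12, limma adjusted p = 0.0549), or -1.06 relative to all genes, with 6 of 6 DZ libraries below the SFZ mean of their genotype. In this fit, which has no block for the replicate number, it missed the threshold, and it passed without R3-cKO SFZ library 3 (-1.52, adjusted p = 0.0139) or without R3-cKO DZ library 2 (-1.36, adjusted p = 0.0430). Within R3-Cntl the log2 fold change was -1.82 (SE 0.49, limma adjusted p = 0.0923), and within R3-cKO it was -0.58 (SE 0.49, limma adjusted p = 0.661). The test of the difference between these, the interaction of zone and genotype, gave 1.24 (SE 0.77, limma adjusted p = 0.999). The value within R3-cKO was -0.20 without SFZ library 2 and -1.13 without SFZ library 3, and the interaction was 0.67 without R3-Cntl DZ library 1.

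Ccnd2 (gene 12444, chr6:127075797-127101066, minus strand) was the most even D cyclin. It was at 113, 129 and 168 FPKM in R3-Cntl SFZ, 140 and 146 and 136 FPKM in R3-cKO SFZ, 77.7, 123 and 149 FPKM in R3-Cntl DZ, and 128, 118 and 160 FPKM in R3-cKO DZ libraries. All 4 groups overlapped, and the narrow R3-cKO SFZ group lay inside the range of the R3-Cntl SFZ group. The zone log2 fold change over all libraries was -0.16 (SE 0.16), or -0.02 relative to all genes, and -0.03 without R3-Cntl DZ library 1.

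Ccnd3 (gene 12445, chr17:47642000-47736632, plus strand), often the D cyclin of differentiating cells, was at 57.2, 72.4 and 81.7 FPKM in R3-Cntl SFZ and at 51.1, 108 and 53.8 FPKM in R3-cKO SFZ libraries. It was at 86.2, 106.5 and 96.3 FPKM in R3-Cntl DZ and at 79.2, 126 and 113 FPKM in R3-cKO DZ libraries. All R3-Cntl DZ libraries lay above all R3-Cntl SFZ libraries, and in R3-cKO the SFZ library 2 reached into the DZ range. Over all libraries the zone log2 fold change was 0.54 (SE 0.19, limma adjusted p = 0.0600), or 0.68 relative to all genes, with 6 of 6 DZ libraries above the SFZ mean of their genotype. Still without a block for the replicate number, it passed the threshold after quantile normalization (0.63, adjusted p = 0.0323), with median-of-ratios scaling (0.71, adjusted p = 0.0260) and without R3-cKO SFZ library 2 (0.69, adjusted p = 0.0117).

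The make-up of the D cyclins is a ratio within a library and does not depend on scaling between libraries. Ccnd3 made up 22.0%, 23.0% and 19.6% of the summed D cyclin FPKM in R3-Cntl SFZ and 16.9%, 26.9% and 23.4% in R3-cKO SFZ libraries. In DZ libraries it made up 48.3%, 38.2% and 32.7% in R3-Cntl and 30.02%, 39.6% and 35.5% in R3-cKO. The 6 SFZ and 6 DZ libraries did not overlap. How many genes, or ratios of this kind, separate all SFZ from all DZ libraries was not counted. By level, 32.4% of all genes had zones without overlap within R3-Cntl and 21% within R3-cKO. The share of Ccnd1 was 34.7%, 36.0% and 40.2% in R3-Cntl SFZ, 36.5%, 36.7% and 17.4% in R3-cKO SFZ, 8.13%, 17.8% and 16.8% in R3-Cntl DZ, and 21.3%, 23.5% and 14.2% in R3-cKO DZ libraries. The zones overlapped in this share only through R3-cKO SFZ library 3. The share of Ccnd2 ran from 36.4% to 59.2% in SFZ and from 36.9% to 50.6% in DZ libraries. The R3-cKO SFZ library 3 combined the lowest Ccnd1 of its zone with the highest summed fibroblast markers of all libraries, 6184 FPKM, and the lowest Mki67. Whether cell types other than chondrocytes take part in these shares was not tested.

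**Figure D2:**
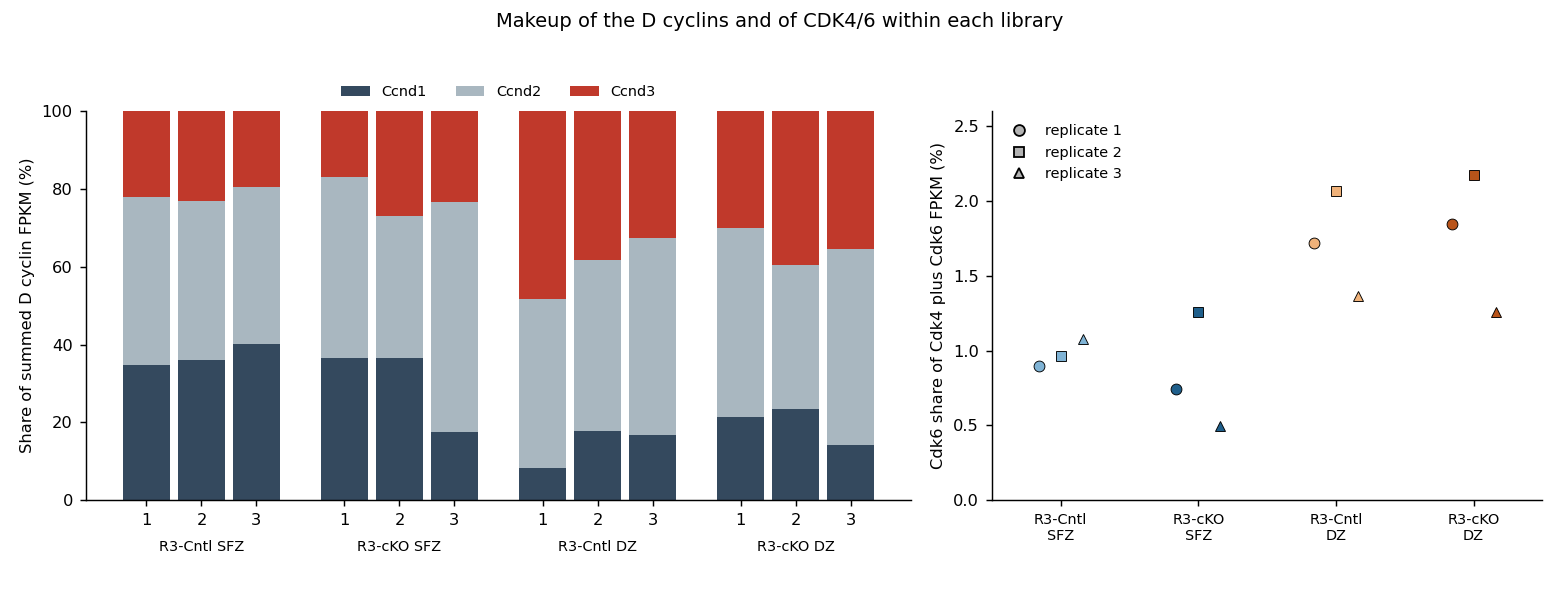
Share of each D cyclin in the summed D cyclin FPKM, and share of Cdk6 in the summed FPKM of Cdk4 and Cdk6, in percent, for each of the 12 libraries. The share of Ccnd3 lies between 16.9% and 26.9% in SFZ libraries and between 30.02% and 48.3% in DZ libraries.

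Cdk4 (gene 12567, chr10:126500590-126504976, plus strand) was at 252, 242 and 242 FPKM in R3-Cntl SFZ, 239, 256 and 198 FPKM in R3-cKO SFZ, 203, 228 and 166 FPKM in R3-Cntl DZ, and 232, 225 and 180.4 FPKM in R3-cKO DZ libraries. The R3-Cntl DZ libraries lay below the R3-Cntl SFZ libraries without overlap, and the R3-cKO groups overlapped. The zone log2 fold change over all libraries was -0.22 (SE 0.11, limma adjusted p = 0.159), and -0.08 relative to all genes. Within R3-cKO it was -0.12, and 0.01 with median-of-ratios scaling.

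Of the 10 genes looked up in the promoter sequences of RefSeq (GRCm38.p6), 7 had an entry, with 10 windows of 300 bases; Ccnd1, Ccnd2 and Rb1 had none. Both strands were searched for TTTGAA (the cell cycle homology region), GCGGGAA or GCGCGAA (an E2F motif), CACGTG (an E-box, bound by Myc among others) and TGTGGT or TGCGGT (a Runx motif), and 0 matches overlapped another in these windows. The windows of Cdk4, Cdkn2c and Mki67 are printed as examples, in lower case with matches in capitals. The windows of Cdk6 and of Cdkn2c at chr4:109665323-109665622 hold CACGTG 1 time each, and that of Ccnd3 at chr17:47504801-47505100 holds the Runx motif 1 time; these are not printed. A match describes the letters and was not tested as a site. The window of Cdk4, chr10:127063285-127063584 on the plus strand, holds CACGTG 4 times and the Runx motif 2 times, the latter written on the opposite strand. Of all 32851 windows, 7.15% hold CACGTG, and 0.0244% hold it at least 4 times; 22.4% hold the Runx motif, and 2.86% hold it at least 2 times.
Cdk4: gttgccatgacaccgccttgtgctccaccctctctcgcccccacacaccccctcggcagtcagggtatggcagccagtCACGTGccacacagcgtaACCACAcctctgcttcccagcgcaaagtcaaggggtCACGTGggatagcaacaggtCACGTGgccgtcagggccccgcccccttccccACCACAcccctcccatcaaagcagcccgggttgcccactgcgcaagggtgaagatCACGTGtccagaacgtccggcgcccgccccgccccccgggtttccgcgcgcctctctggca

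Cdk6 (gene 12571, chr5:3343893-3523218, plus strand) was a small part of the kinase pool. It was at 2.28, 2.35 and 2.64 FPKM in R3-Cntl SFZ, 1.80, 3.26 and 0.98 FPKM in R3-cKO SFZ, 3.54, 4.81 and 2.29 FPKM in R3-Cntl DZ, and 4.35, 5.01 and 2.30 FPKM in R3-cKO DZ libraries. DZ library 3 of each genotype lay within the SFZ range, and the other DZ libraries lay above all SFZ libraries. Between zones its log2 fold change over all libraries was 0.55 (SE 0.22, limma adjusted p = 0.0881), or 0.69 relative to all genes, with 5 of 6 DZ libraries above the SFZ mean of their genotype. In fits without a block it passed the threshold after quantile normalization (0.80, adjusted p = 0.0241), with median-of-ratios scaling (0.66, adjusted p = 0.0440), without R3-cKO SFZ library 2 (0.65, adjusted p = 0.0469) and without R3-Cntl DZ library 3 (0.66, adjusted p = 0.0468). Cdk6 made up 0.494% to 1.258% of the summed FPKM of Cdk4 and Cdk6 in SFZ libraries and 1.259% to 2.18% in DZ libraries, ranges that all but touch.

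Cdkn1a (gene 12575, chr17:29227924-29237667, plus strand), the most abundant inhibitor of the 3, was at 132, 94.0 and 161 FPKM in SFZ libraries of R3-Cntl and, in those of R3-cKO, at 163, 184 and 149.5 FPKM. In DZ libraries it was at 220.2, 136 and 227 FPKM in R3-Cntl and at 160.4, 125 and 252 FPKM in R3-cKO. DZ library 2 of both genotypes was the lowest of its group, and all 4 groups overlapped. The genotype log2 fold change in SFZ cells was 0.38 (SE 0.22, limma adjusted p = 0.9997), with 3 of 3 R3-cKO libraries above the R3-Cntl mean, and 0.17 with the R3-Cntl SFZ library 2 left out. In DZ cells it was -0.14 (SE 0.31), and 0.09 without R3-cKO DZ library 2. Over all libraries the zone log2 fold change was 0.32 (SE 0.21, limma adjusted p = 0.293), or 0.46 relative to all genes, and 0.20 without R3-Cntl SFZ library 2.

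Cdkn1b (gene 12576, chr6:134870419-134875531, plus strand), a brake that is typically high in resting cells, was at 29.6, 32.0 and 26.4 FPKM in R3-Cntl SFZ and at 32.0, 28.0 and 37.2 FPKM in R3-cKO SFZ libraries. It was at 21.1, 26.4 and 28.3 FPKM in R3-Cntl DZ and at 24.7, 25.5 and 24.5 FPKM in R3-cKO DZ libraries. All R3-cKO DZ libraries lay below all R3-cKO SFZ libraries, and the R3-Cntl zones overlapped. Over all libraries its zone log2 fold change was -0.29 (SE 0.09, n = 12, limma adjusted p = 0.0465), with 6 of 6 DZ libraries below the SFZ mean of their genotype. In this fit without a block for the replicate number it was the 1 gene of the 9 past the threshold. Relative to the median of all genes it was -0.15. With such a block its limma adjusted p was 0.0499, and Ccnd1 (0.0222), Ccnd3 (0.0114) and Cdk6 (0.0229) passed as well. That made 4 of the 9, beside 3965 of 11765 genes. Some same-numbered R3-Cntl libraries did not deviate together, so what the block compares there is uncertain. Without a block, Cdkn1b was -0.15 after quantile normalization (adjusted p = 0.320) and -0.13 with median-of-ratios scaling (adjusted p = 0.361). With no filter on low values the adjusted p was 0.0520, and with 1 library left out it lay between 0.0579 and 0.107 in 9 of 12 cases. The call held without R3-Cntl SFZ library 3, R3-cKO SFZ library 2 or R3-Cntl DZ library 3.

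Cdkn2c (gene 12580, chr4:109333481-109339794, minus strand) was at 19.5, 27.5 and 37.75 FPKM in R3-Cntl SFZ, 16.2, 33.0 and 14.96 FPKM in R3-cKO SFZ, 9.18, 21.3 and 15.2 FPKM in R3-Cntl DZ, and 18.2, 31.3 and 15.5 FPKM in R3-cKO DZ libraries. Library 2 was the highest of its group in every group but R3-Cntl SFZ, where library 3 was, and all groups overlapped. The zone log2 fold change was -0.87 in R3-Cntl (SE 0.34, limma adjusted p = 0.160), or -0.57 without DZ library 1, and 0.04 in R3-cKO (SE 0.38). The latter turned to -0.10 without R3-cKO SFZ library 1, to -0.16 without SFZ library 3 and to -0.24 without DZ library 2. Over all libraries the zone log2 fold change of Cdkn2c was -0.41 (SE 0.30, limma adjusted p = 0.338), or -0.27 relative to all genes. The interaction was 0.92 (SE 0.55, limma adjusted p = 0.999). One of its windows, chr4:109666707-109667006 on the minus strand, holds 1 E2F motif, here written on the opposite strand, which 6% of all windows hold.
Cdkn2c: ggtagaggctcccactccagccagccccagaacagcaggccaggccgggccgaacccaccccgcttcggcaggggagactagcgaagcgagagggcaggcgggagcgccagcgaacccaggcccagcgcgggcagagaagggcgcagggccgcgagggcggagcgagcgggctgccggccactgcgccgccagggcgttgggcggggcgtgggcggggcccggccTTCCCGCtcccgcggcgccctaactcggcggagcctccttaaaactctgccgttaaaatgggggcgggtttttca

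Rb1 (gene 19645, chr14:73583480-73725629, minus strand) was low and even. It was at 4.63, 5.54 and 4.59 FPKM in R3-Cntl SFZ, 5.27, 4.76 and 4.82 FPKM in R3-cKO SFZ, 3.56, 4.01 and 4.69 FPKM in R3-Cntl DZ, and 4.62, 4.40 and 3.59 FPKM in R3-cKO DZ libraries. The R3-cKO DZ libraries lay below the R3-cKO SFZ libraries without overlap. The zone log2 fold change over all libraries was -0.21 (SE 0.08, limma adjusted p = 0.0868), -0.07 relative to all genes, and 0.02 after quantile normalization, so its direction depends on the scaling.

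Mki67 (gene 17345, chr7:142881471-142908062, minus strand), made in cycling cells, was at 13.8, 28.8 and 50.5 FPKM in R3-Cntl SFZ, 8.34, 40.2 and 2.67 FPKM in R3-cKO SFZ, 5.44, 20.3 and 6.30 FPKM in R3-Cntl DZ, and 14.1, 35.1 and 3.81 FPKM in R3-cKO DZ libraries. Library 2 was the highest of its group in all groups but R3-Cntl SFZ, and every group overlapped every other. The genotype log2 fold change was -1.34 in SFZ cells (SE 0.92, limma adjusted p = 0.9997), but -0.53 if R3-cKO SFZ library 3 is left out and -2.28 if library 2 of that group is. In DZ cells it was 0.46 (SE 0.79, limma adjusted p = 0.999), and -0.23 without R3-cKO DZ library 2. The zone log2 fold change was -1.50 in R3-Cntl (SE 0.59, limma adjusted p = 0.164). In R3-cKO it was 0.30 (SE 1.06, limma adjusted p = 0.937), and it turned to -0.51 without SFZ library 3 and to -0.40 without DZ library 2. The promoter window of Mki67, chr7:135716330-135716629 on the minus strand, holds TTTGAA 2 times. Of all windows, 2.31% hold it at least 2 times and 17.9% at least once.
Mki67: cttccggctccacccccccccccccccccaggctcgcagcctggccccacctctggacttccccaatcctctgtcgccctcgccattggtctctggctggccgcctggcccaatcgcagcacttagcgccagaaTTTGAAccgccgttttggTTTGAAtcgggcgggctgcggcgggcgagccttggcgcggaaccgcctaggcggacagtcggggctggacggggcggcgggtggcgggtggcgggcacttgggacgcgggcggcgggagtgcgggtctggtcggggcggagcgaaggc

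The proliferation index was then set beside each gene inside each zone, where 6 libraries form 15 pairs. A pair is ordered like Mki67 where the library with more Mki67 also has more of the gene. Cdkn2c was so ordered in 15 of 15 SFZ pairs and 13 of 15 DZ pairs, Ccnd1 in 14 and 13, and Cdk6 in 14 and 13. Ccnd3 was so ordered in 13 SFZ and 9 DZ pairs, Cdk4 in 12 and 10, Ccnd2 in 11 and 4, and Rb1 in 5 and 9. The Cip/Kip inhibitors were so ordered in 8 SFZ pairs and 1 DZ pair for Cdkn1a, and in 2 SFZ pairs and 10 DZ pairs for Cdkn1b. The INK4 inhibitor Cdkn2c thus went with Mki67 in both zones, as did Ccnd1 and Cdk6. Such order was common among all genes: 16.5% of 11764 genes were ordered like Mki67 in at least 13 pairs in SFZ and 16.3% in DZ, and 12.0% and 4.63% in at most 2. The median over these genes was 7 pairs in SFZ and 9 pairs in DZ. Libraries of both genotypes are joined in these pairs, and zones may share mice, so the counts are descriptions with no test.

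**Figure D3:**
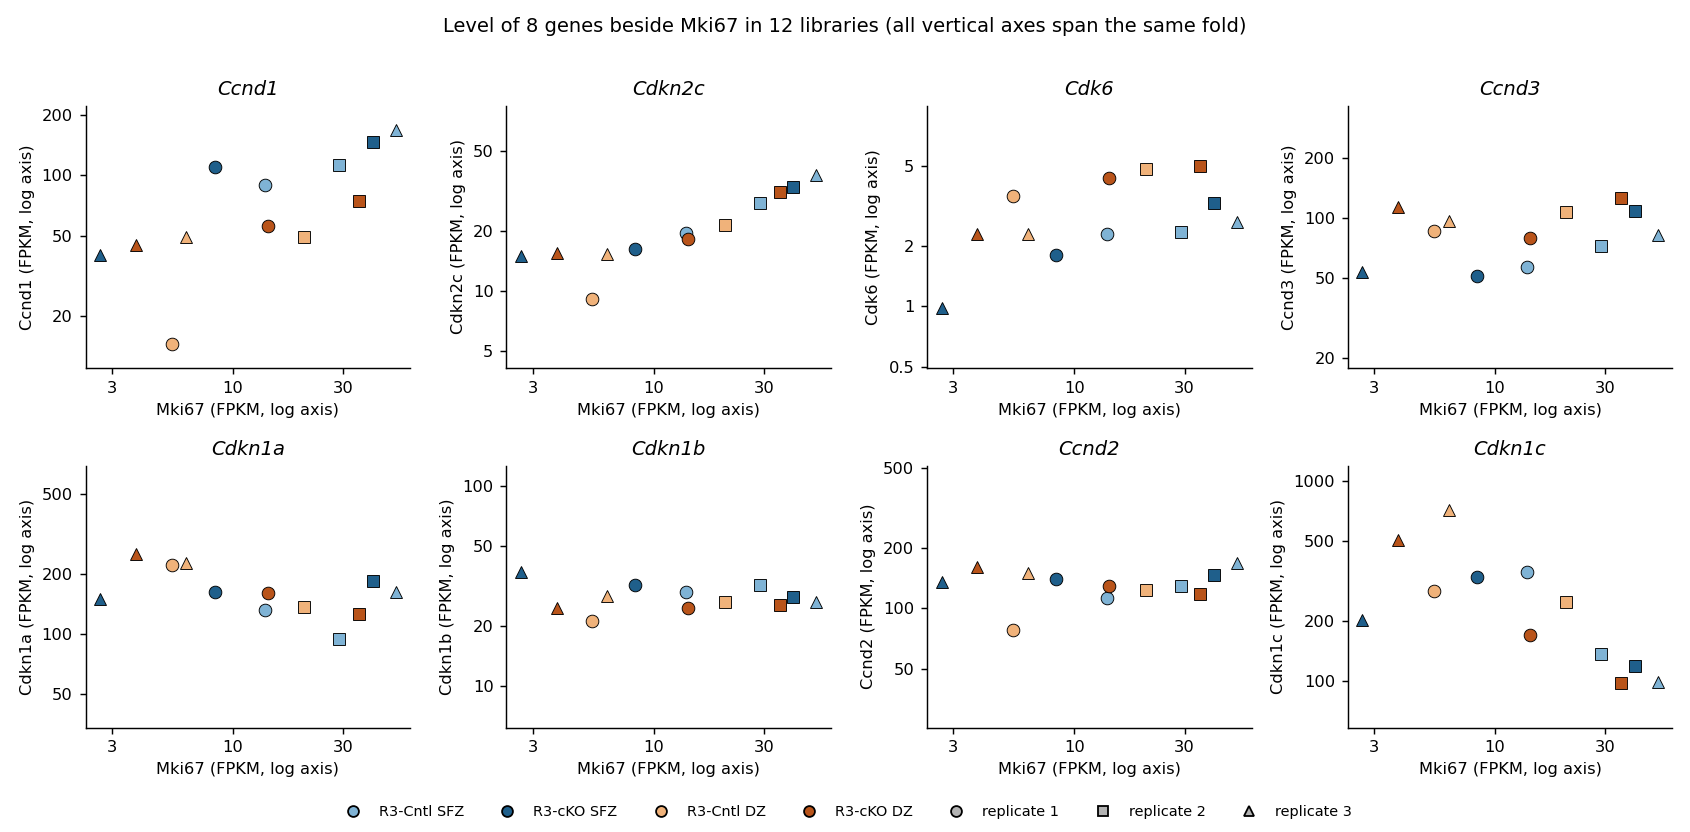
Level in FPKM of Ccnd1, Cdkn2c, Cdk6, Ccnd3, Cdkn1a, Cdkn1b, Ccnd2 and Cdkn1c against that of Mki67 in the same library. Zones and genotypes are marked, and Cdk4 and Rb1 are not shown. Cdkn2c rises with Mki67 in 15 of 15 library pairs in SFZ and 13 of 15 in DZ, and Cdkn1a does so in 1 of 15 in DZ.

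Between genotypes, the question was whether targeting Runx3 shifts the G1 genes. In SFZ cells 0 of the 9 genes passed limma at adjusted p under 0.05, as did 0 of 11537 genes (0%). At unadjusted p under 0.05 there were 0 of the 9 and 34 of all genes (0.295%), and groups without overlap were seen for 0 of the 9 and for 277 genes (2.4%). The log2 fold changes of the 9 ran from -0.46 for Ccnd1, which was 0.09 without R3-cKO SFZ library 3, to 0.38 for Cdkn1a, with a median of -0.06 beside -0.01 for all genes. In DZ cells 0 of the 9 passed limma at adjusted p under 0.05, as did 0 of 11091 genes (0%). At unadjusted p under 0.05 there were 0 of the 9 and 404 genes (3.64%), and 0 of the 9 had groups without overlap, beside 891 genes (8.03%). The log2 fold changes ran from -0.14 for Cdkn1a to 0.78 for Ccnd1 (SE 0.48), which was above the R3-Cntl mean in 3 of 3 libraries but fell to 0.21 without R3-Cntl DZ library 1. Their median was 0.10 beside 0.05 for all genes. Same-numbered DZ libraries of the genotypes deviated together. With a block for the number 0 genes passed at adjusted p under 0.05, and at unadjusted p under 0.05 there was 1 of the 9 beside 1830 genes (16.5%). That 1 was Cdkn2c, at 0.49 (limma adjusted p = 0.278) and higher in R3-cKO in 3 of 3 pairs. Without a block, its 0.49 fell to 0.19 without R3-Cntl DZ library 1 and to 0.20 without R3-cKO DZ library 2. Blocked values with 1 library left out are not given. The pair numbered 3 was nearly level, at 15.23 FPKM (R3-Cntl) and 15.51 FPKM (R3-cKO). The interaction of zone and genotype passed limma at adjusted p under 0.05 for 0 of the 9 and 0 of 11765 genes (0%), and at unadjusted p under 0.05 for 0 of the 9 and 99 genes (0.841%).

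Between zones, the question was how SFZ and DZ cells differ in the same genes. In R3-Cntl, 0 of the 9 passed limma at adjusted p under 0.05, beside 140 of 11336 genes (1.24%). At unadjusted p under 0.05 there were 3 of the 9, Ccnd1 and Cdkn2c lower and Ccnd3 higher in DZ, beside 27.4% of all genes, and 3 of the 9 had zones without overlap (Ccnd1, Ccnd3 and Cdk4), beside 32.4%. In R3-cKO, 0 of the 9 passed limma at adjusted p under 0.05, beside 2 genes (0.0176%). At unadjusted p under 0.05 there was 1, Cdkn1b, beside 14.1%, and 2 had zones without overlap (Cdkn1b and Rb1), beside 21% of all genes. Over all libraries, fitted without a block for the replicate number, 1 of the 9, Cdkn1b, passed at adjusted p under 0.05, beside 2725 of 11765 genes (23.2%), and at unadjusted p under 0.05 there were 5 (Ccnd1, Cdkn1b and Rb1 lower, Ccnd3 and Cdk6 higher), beside 37.1%. Set against these shares, the counts are no result about the 9 genes as a group. The comparison over all libraries shares its libraries with those within each genotype. Without the 3 SFZ libraries with the highest macrophage markers, chosen after seeing the data, 579 genes passed and 0 of the 9 did, with Ccnd1 at -1.14 (adjusted p = 0.289), Ccnd3 at 0.36 (0.399), Cdk6 at 0.54 (0.338) and Cdkn1b at -0.25 (0.306). This leaves R3-Cntl SFZ with 1 library, which is assumed to vary like the other groups. In R3-cKO, where same-numbered libraries deviated together, a block for the number gave 352 genes at adjusted p under 0.05 and 0 of the 9. At unadjusted p under 0.05 it gave 3 of the 9 (Ccnd3, Cdk6 and Cdkn1b), beside 3396 of 11336 genes. The zone values of the 9 genes given up to here are otherwise from fits without such a block, and counts with a block for the other zone comparisons are given with the settings further below.

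**Figure D4:**
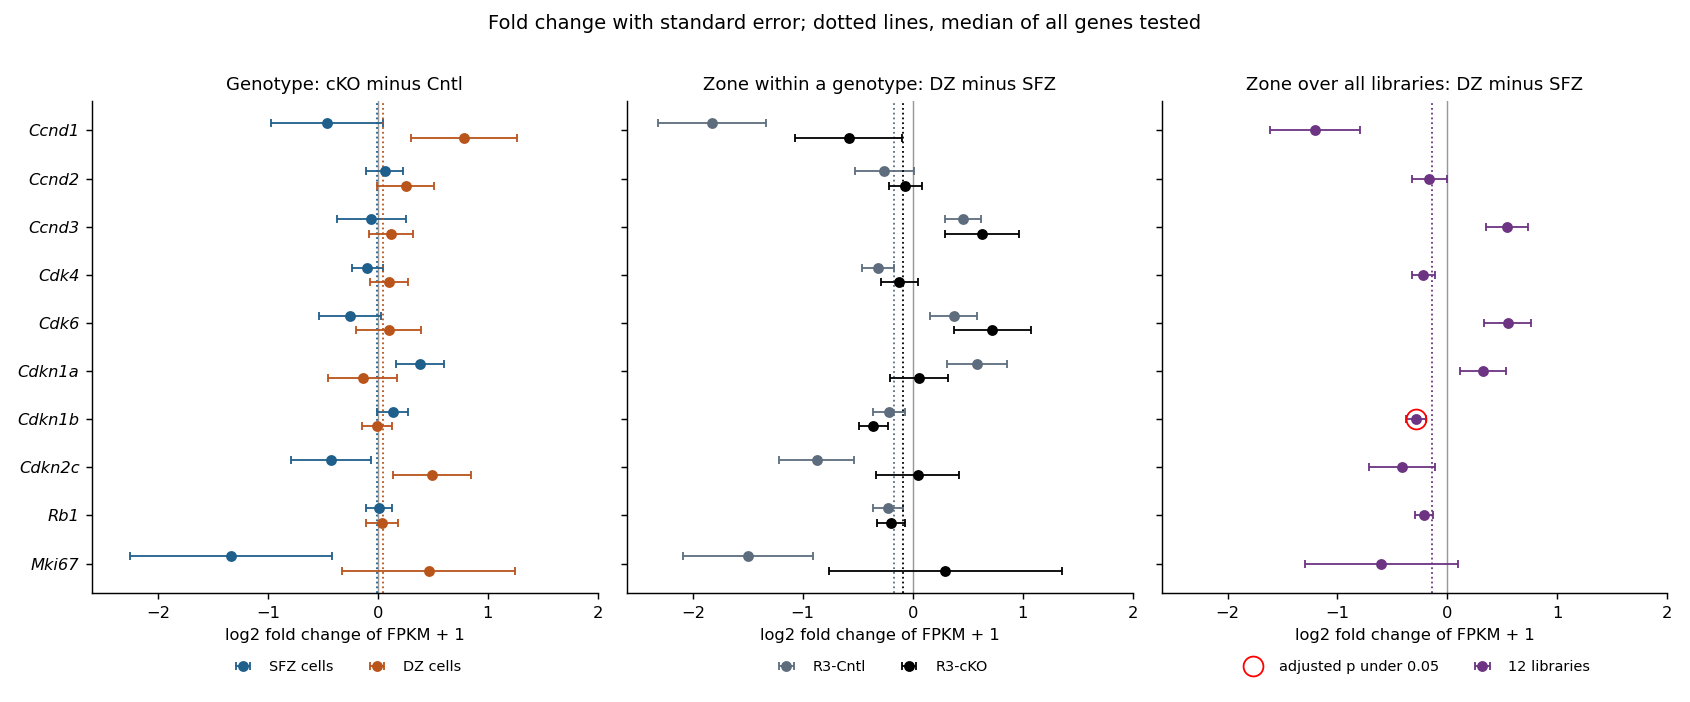
Log2 fold change of FPKM + 1 with its standard error for the 9 genes and Mki67, between genotypes in each zone, between zones in each genotype and between zones over all 12 libraries, with dotted lines at the median of all genes tested. Cdkn1b, at -0.29 between zones, is the 1 gene circled for an adjusted p under 0.05 in fits without a block for the replicate number. It loses this call under both other scalings.

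The rest of the G1/S machinery was followed with a list of 28 further genes. Between genotypes 0 of 27 tested genes in SFZ cells and 0 of 26 in DZ cells passed limma at adjusted p under 0.05, and at unadjusted p under 0.05 there were 0 and 1, beside 0.295% and 3.64% of all genes, the latter Cdkn2b (p15) at 0.69. The median log2 fold change of the list was -0.27 in SFZ and 0.18 in DZ cells. The largest changes between genotypes, none past the threshold, were E2f8 (-0.95), Ccne2 (-0.86) and E2f7 (-0.81) in SFZ cells, and Cdkn2a (0.88), Cdkn1c (-0.85) and Cdkn2b (0.69) in DZ cells. Those in SFZ cells were -0.29, -0.31 and -0.30 without R3-cKO SFZ library 3, and -1.70, -1.65 and -1.58 if library 2 of that group is left out. In DZ cells Cdkn2a was 0.29 without R3-cKO library 3, and Cdkn1c was -0.32 without R3-cKO library 2. The order of such lowly expressed genes also depends on the pseudocount: with 0.1 in place of 1, E2f7 was -1.34, E2f8 -1.29 and Ccne2 -1.08, and with 5 they were -0.33, -0.48 and -0.47. Between zones 0 genes passed within either genotype in the fit without a block, and at unadjusted p under 0.05 6 of 26 were lower in R3-Cntl and 1 of 26 in R3-cKO, beside 22.4% and 11.1% of all genes. There the largest values were E2f7 (-1.24), Cdkn2b (-1.14) and Cdkn1c (1.12) in R3-Cntl, and Cdkn2b (-1.01), E2f8 (0.73) and Ccne1 (0.61) in R3-cKO. Of these, Cdkn1c was 0.65 without R3-Cntl DZ library 3, and E2f8 and Ccne1 were 0.07 and 0.28 without R3-cKO SFZ library 3. The median of the list was -0.45 in R3-Cntl, 0.12 in R3-cKO and -0.16 over all libraries. How far these medians depend on single libraries was not tested. The interaction, where 0 of 27 passed limma and 0 did at unadjusted p under 0.05, had a list median of 0.40, with E2f8 (1.54), E2f7 (1.42) and Ccne2 (1.26) the largest, which were 0.88, 0.90 and 0.71 without R3-cKO SFZ library 3.

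Over all libraries 2 of 27 genes of the list fell from SFZ to DZ cells at adjusted p under 0.05, as did 2219 of 11765 genes. Cdkn2b, an INK4 inhibitor known as a target of TGF-beta, was at 14.4, 15.8 and 17.8 FPKM in R3-Cntl SFZ, 30.6, 12.0 and 36.2 FPKM in R3-cKO SFZ, 4.64, 7.17 and 8.79 FPKM in R3-Cntl DZ, and 13.6, 8.77 and 12.15 FPKM in R3-cKO DZ libraries. The zones did not overlap in R3-Cntl, beside 32.4% of all genes, and in R3-cKO the SFZ library 2 reached the DZ range. Its log2 fold change was -1.08 (SE 0.24, limma adjusted p = 0.0103, 6 of 6 libraries), and it was -1.01 (adjusted p = 0.123) without the 3 SFZ libraries with the highest macrophage markers. Rbl2, which encodes the pocket protein p130, was at -0.48 (SE 0.16, limma adjusted p = 0.0441, 6 of 6 libraries). It lost the call after quantile normalization (-0.29, adjusted p = 0.251), with median-of-ratios scaling (-0.34, adjusted p = 0.174) and in 9 of 12 cases with 1 library left out, where the adjusted p lay between 0.0613 and 0.0971. Cdkn1c (p57), a Cip/Kip inhibitor of maturing chondrocytes, had a mean of 272 FPKM, above that of Cdkn1a, and was at 99.8 to 353 FPKM in R3-Cntl SFZ, 119 to 330.5 FPKM in R3-cKO SFZ, 249 to 712 FPKM in R3-Cntl DZ and 98.7 to 509 FPKM in R3-cKO DZ libraries. All 4 of its groups overlapped, and its zone log2 fold change over all libraries was 0.58, or 0.31 without R3-Cntl DZ library 3. That of E2f7 was -0.54, or -0.28 without either R3-Cntl SFZ library 3 or R3-cKO SFZ library 2.

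Of 20 genes of the p53 pathway, Trp53 itself and its targets, 0 passed limma between genotypes at adjusted p under 0.05, with 2 higher at unadjusted p under 0.05 in SFZ and 2 higher in DZ cells, beside 0.182% and 2.50% of all genes. Their median log2 fold change was 0.19 in SFZ and 0.17 in DZ cells, beside -0.01 and 0.05 for all genes. Over all libraries 1 of them, Ei24, was lower in DZ cells, as were 2219 of 11765 genes (-0.35, limma adjusted p = 0.0117, 6 of 6 libraries), which it was not with median-of-ratios scaling (-0.19, adjusted p = 0.146). The list median there was -0.19. The 36 genes of the proliferation list had medians of the same sign as Mki67. In SFZ cells 36 of 36 were below 0 between genotypes, beside 52.5% of all genes, with a median of -1.09. In DZ cells 36 of 36 were above 0, beside 62.3% of all genes, with a median of 0.50. Genes of this list can vary together (Kif11 had r 0.998 with Mki67), so 36 of 36 is not 36 separate observations. Values of this list with 1 library left out are not given. Mki67 itself went from -1.34 to -0.53 in SFZ cells without R3-cKO SFZ library 3. In DZ cells it turned to -0.23 without R3-cKO DZ library 2. Between zones the median was -1.28 in R3-Cntl, with 36 of 36 below 0, beside 72.0% of all genes, and 19 of 36 lower at unadjusted p under 0.05, beside 22.4%. In R3-cKO it was 0.31, with 31 of 36 above 0, beside 34.6%. There Mki67 turned to -0.51 without SFZ library 3 and to -0.40 without DZ library 2. Limma without a block for the replicate number called 0 of the 36 at adjusted p under 0.05 in each of these comparisons and over all libraries. Counts given for the G1/S and p53 lists are also from fits without a block, and blocked counts of these lists are not given. The 36 genes of the proliferation list were also summed in each library. Their summed level followed single libraries more than groups: it was 568, 1012 and 1710 FPKM in R3-Cntl SFZ, 391, 1466 and 206 FPKM in R3-cKO SFZ, 350.2, 776 and 250.01 FPKM in R3-Cntl DZ, and 682, 1327 and 229.9 FPKM in R3-cKO DZ libraries.

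By Pearson r of log2(FPKM + 1) over the 12 libraries, among the 5925 genes that averaged 10 FPKM or more, the 3 genes most like each were as follows. Ccnd1 was most like Sgms1 (r 0.951), Ptpn12 (0.943) and Xpo6 (0.941). Ccnd2 was most like Ttc13 (r 0.908), Ptpn14 (0.897) and Dbn1 (0.873), and Ccnd3 most like Cdr2 (0.968), Sec23b (0.966) and Srp54b (0.963). The kinase Cdk4 was most like Oser1 (r 0.970), Upf3a (0.964) and Pitrm1 (0.961), and Cdk6 most like Nomo1 (0.976), Uck2 (0.971) and Ywhaq (0.961). Among the inhibitors, Cdkn1a was most like Susd6 (r 0.878), Ccng1 (0.852) and BC004004 (0.817), Cdkn1b most like Manea (0.975), Ptpra (0.949) and Rabgap1 (0.947), and Cdkn2c most like Hmgb3 (0.983), Golm1 (0.981) and Jpt1 (0.973). Rb1 was most like Akirin2 (r 0.913), Atrn (0.879) and Bmpr2 (0.877). For comparison, Mki67 was most like Kif11 (r 0.998), Hmmr (0.997) and Nuf2 (0.997). These are descriptions over libraries that share zones and genotypes.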

How the data were processed

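RNA of 12 libraries, 3 in each of 4 groups of zone and genotype, was read as 100-bp pairs on a BGIseq-500 and mapped to mm9; the submitters' processing notes name Bowtie 0.12.2. The authors deposited FPKM scaled between libraries by the trimmed mean of M values, 1 value per gene and library. The unit was inferred from the values and the table's name, and 0 columns were left unmapped. Depth per library is unknown, so no counting error is given.

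Each of 6 comparisons was fitted with limma 3.58.1 in R 4.3.3 on log2(FPKM + 1), with a mean-variance trend, on genes that reached 1 FPKM in 3 or more libraries, with Benjamini-Hochberg adjustment over all of them. The zone fit over all libraries had genotype as a covariate. Tables and plots used Python 3.11.15, pandas 2.3.3 and NumPy 2.4.6, and the code was tested on simulated data. Alternatives were a block for the replicate number, each library left out, median-of-ratios scaling, quantile normalization, other filters and pseudocounts of 0.1 and 5.

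No label says that a replicate number marks a mouse or litter, so the numbers were checked by the correlation of same-numbered libraries' deviations from their group means over 11359 genes. It was 0.65, 0.78 and 0.69 between genotypes in DZ and 0.42, 0.78 and 0.65 between zones in R3-cKO, so numbers were taken to pair these; the other comparisons had at least 1 value under 0.1.

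The 9 genes and Mki67 were always named, with Runx3; of the other lists, genes called at adjusted p under 0.05 and the 3 G1/S genes with the largest change per comparison; and the 3 genes most like each member. Members and lists were chosen with earlier results of these data known.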

Additional observations from a re-analysis of the deposited data

How the results depend on the processing

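Counts of genes called at adjusted p under 0.05 depended on the setting. For the zone effect in R3-Cntl, 140 genes became 0 with no filter, 8 where genes averaged 10 FPKM or more, 88 and 29 with pseudocounts of 0.1 and 5, 4 after quantile normalization and 17 with median-of-ratios scaling. For the zone effect in R3-cKO, 2 became 7 with no filter, 0 where genes averaged 10 FPKM or more, and 1 with each other pseudocount. Over all libraries 2725 became 1162 with a mean of at least 10 FPKM, where fewer genes are tested, and 579 without 3 SFZ libraries with macrophage markers, an alternative chosen after seeing the data. The split of 506 higher and 2219 lower became 1238 and 864 after quantile normalization and 1050 and 1080 with median-of-ratios scaling. With 1 library left out, counts ran from 0 to 505 for zone in R3-Cntl, 0 to 5 for zone in R3-cKO and 1624 to 2899 over all libraries. The lowest counts in R3-Cntl, 0 each, came without SFZ library 2, DZ library 1 or DZ library 2; without SFZ library 1 it was 505, without SFZ library 3 it was 3 and without DZ library 3 it was 4. In R3-cKO the count was 5 without SFZ library 3, 1 without SFZ library 2 and 0 without SFZ library 1 or any DZ library. Over all libraries 1624 came without R3-Cntl SFZ library 2. The genotype and interaction counts were 0 by limma in every setting, with 34 (SFZ), 404 (DZ) and 99 (interaction) at unadjusted p under 0.05 in the reported fit. Those became 143, 696 and 252 with no filter, and 15, 184 and 41 where genes averaged 10 FPKM or more. With 1 library left out they ran from 12 to 1204, 211 to 773 and 36 to 714, where 1204 and 714 came without R3-cKO SFZ library 2 and 773 without R3-cKO DZ library 3. Except where named, the cause was not tested.

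With a block for the replicate number, the count rose to 831 for zone in R3-Cntl, 352 for zone in R3-cKO and 3965 over all libraries, and genes at unadjusted p under 0.05 to 51 in SFZ and 1830 in DZ between genotypes and 949 for the interaction. The pairing check gave 0.79, -0.09 and -0.42 between genotypes in SFZ and 0.58, 0.11 and -0.15 between zones in R3-Cntl, so there the libraries share only a number. In both, R3-Cntl SFZ libraries 2 and 3 correlated best with another number (library 2 with R3-Cntl DZ 3 at 0.38 and R3-cKO SFZ 3 at 0.45, library 3 with R3-Cntl DZ 2 at 0.58 and R3-cKO SFZ 2 at 0.69). This is a hint from the data, not the design, and what the blocked values in R3-Cntl compare is uncertain. Blocked, the zone effects of Cdkn2b (adjusted p = 0.0305) and Ccnd1 (0.0370) passed in R3-Cntl, and Ccnd1 passed over all libraries (0.0222), as did Ccnd3 (0.0114), Cdk6 (0.0229) and Cdkn1b (0.0499) over all libraries. The blocked genotype effect of Cdkn2c in DZ had limma adjusted p = 0.278, and the blocked interaction of Cdkn2c, Mki67 and Ccnd1 had limma adjusted p of 0.577, 0.603 and 0.603.

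Of the named genes' values under settings other than leaving out 1 library, 674 kept direction and side of the threshold, 9 passed it anew, 44 lost it and 8 reversed. Those 8 were Rb1 between genotypes in DZ (-0.06 quantile, -0.01 median-of-ratios), between zones in R3-Cntl (0.07 quantile) and over all libraries (0.02 quantile), and in the interaction (-0.09 quantile, -0.03 median-of-ratios), and, with median-of-ratios, Ccnd2 (0.07) and Cdk4 (0.01) between zones in R3-cKO. With a pseudocount of 5, changes of low genes shrank, as for Cdk6 (0.27) and Rb1 (-0.12) between zones over all libraries, Cdkn2a (0.46) between genotypes in DZ and E2f7 (-0.58) between zones in R3-Cntl.

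With 1 library left out, these log2 fold changes turned sign. Between genotypes in SFZ: Ccnd1 from -0.84 to 0.09, Ccnd2 from -0.07 to 0.22, Ccnd3 from -0.40 to 0.13, Cdk4 from -0.17 to 0.01, Cdk6 from -0.54 to 0.01 and Rb1 from -0.03 to 0.08. Between genotypes in DZ: Ccnd2 from -0.01 to 0.45, Ccnd3 from -0.02 to 0.31, Cdk4 from -0.02 to 0.21, Cdk6 from -0.12 to 0.36, Cdkn1a from -0.41 to 0.09, Cdkn1b from -0.13 to 0.07, Rb1 from -0.04 to 0.12 and Mki67 from -0.23 to 1.22. Between zones: Ccnd2 from -0.46 to 0.01 in R3-Cntl, and in R3-cKO Ccnd2 from -0.19 to 0.03, Cdkn1a from -0.22 to 0.29, Cdkn2c from -0.24 to 0.39 and Mki67 from -0.51 to 1.24. In the interaction: Ccnd2 from -0.07 to 0.39, Ccnd3 from -0.01 to 0.52 and Rb1 from -0.05 to 0.11.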

Other observations

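Cdkn2a, which encodes p16 and p19Arf and rises in cells kept in culture, was low. It was at 1.87, 3.97 and 7.11 FPKM in R3-Cntl SFZ, 4.10, 2.83 and 15.3 FPKM in R3-cKO SFZ, 0.65, 1.96 and 5.66 FPKM in R3-Cntl DZ, and 2.43, 3.46 and 12.3 FPKM in R3-cKO DZ libraries. Library 3 was the highest of its group in all 4 groups, and the groups overlapped. The remaining INK4 gene, Cdkn2d (p19), was at 10.8, 14.9 and 18.9 FPKM in R3-Cntl SFZ, 8.32, 17.65 and 5.55 FPKM in R3-cKO SFZ, 7.09, 9.82 and 6.27 FPKM in R3-Cntl DZ, and 10.2, 15.9 and 8.61 FPKM in R3-cKO DZ libraries. It was ordered like Mki67 in 15 of 15 SFZ and 11 of 15 DZ pairs, while Cdkn2b was so in 4 and 7 and Cdkn1c in 3 and 3. E2f1, itself a target of E2F, was so ordered in 14 SFZ and 13 DZ pairs.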
